A study of Sorghum bicolor with 12 samples.

Results

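The genes described here are the 3 cellulose synthase genes of sorghum (Sorghum bicolor) that serve the secondary cell wall, Sobic.002G205500, Sobic.001G224300 and Sobic.003G296400. They are listed as the orthologues of Arabidopsis CESA4, CESA7 and CESA8, and were taken by these IDs from the 34129 genes of a root count table. The IDs carry the numbers of chromosomes 2, 1 and 3. The table pairs no ID with a name, so that which of the 3 corresponds to which Arabidopsis gene is not stated here, and the orthology itself was not checked.

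Root messenger RNA was compared between bri1-ems72, a mutant of the brassinosteroid receptor gene BRI1, and WT-ems72, its wild-type sibling. Both groups came from the same selfed progeny of a second backcross, received no treatment, and were grown in vitro from explanted embryos for 8 days. There were 3 replicates per genotype, made by pooling no fewer than 6 roots for each, and the counts of a pool's 2 technical runs were added together. The pools held 44357644 to 54629427 counts, and backcross plants pooled in this way may still differ in their genetic background.

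Cellulose is made at the plasma membrane by a complex of several cellulose synthase (CESA) subunits. Primary walls, which growing cells lay down, and secondary walls, which xylem vessels and fibres add once growth has stopped, use different sets of these subunits. In Arabidopsis the secondary wall complex needs all 3 of its subunits, and loss of any of them leaves xylem vessels that collapse. Brassinosteroids are known from Arabidopsis to promote xylem formation, which is the background to asking how these transcripts stand in a receptor mutant.

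All 3 genes were read in every pool, and their levels spread far more among the wild-type pools than among the mutant pools. Sobic.002G205500 stood at 391, 31.5 and 164 CPM in the WT-ems72 pools and at 172, 121 and 152 CPM in the bri1-ems72 pools, here and below in the order of replicates 1, 2 and 3. CPM are counts divided by the library's total, scaled by the TMM method and written per 1000000 counts. The highest and the lowest pool were thus both wild type, and all 3 mutant pools lay between them.

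The other genes ranked the extreme pools in the same way. Sobic.001G224300 stood at 381, 36.4 and 125 CPM in the WT-ems72 pools and at 163, 123 and 116 CPM in the bri1-ems72 pools. For Sobic.003G296400 the levels were 282, 29.6 and 140 CPM in WT-ems72 and 146, 109 and 112 CPM in bri1-ems72. In both genes WT-ems72 replicate 1 was highest, WT-ems72 replicate 2 was lowest, and the mutant pools fell within the wild-type range.

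The counts behind these levels were large. The 18113, 17668 and 13073 counts of Sobic.002G205500, Sobic.001G224300 and Sobic.003G296400 in WT-ems72 replicate 1 compare with 1376, 1586 and 1291 in WT-ems72 replicate 2, although the libraries themselves were of similar size (45421703 and 44357644 counts, TMM factors of 1.02 and 0.984). The technical runs gave close values within a pool: the 2 columns of a pool, each scaled to its total, differed for these genes by at most 0.12 on the log2 scale and by 0.039 in the median. The spread thus lay between pools and not between runs of a pool. In roots sampled as bulk tissue, fewer xylem or fibre cells and less RNA of these genes per cell cannot be told apart.

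**Figure D1:**
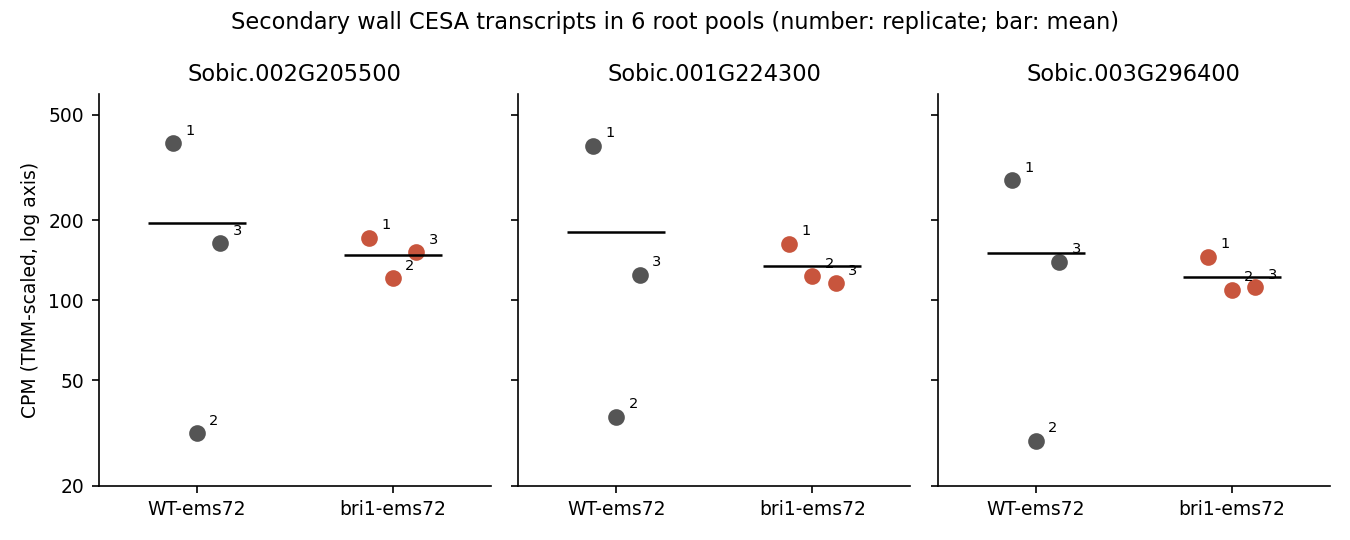
Level of each gene (CPM, TMM-scaled, log axis) in the 3 WT-ems72 and 3 bri1-ems72 pools, with the replicate number beside each point and a bar at the mean. In every panel the wild-type pools span the widest range, from replicate 2 (29.6 to 36.4 CPM) to replicate 1 (282 to 391 CPM), and the mutant pools lie between 109 and 172 CPM.

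Expressed as means, Sobic.002G205500 had 196 ± 182 CPM in WT-ems72 and 148 ± 25.4 CPM in bri1-ems72 (SD, n = 3 each). Sobic.001G224300 had 181 ± 179 CPM and 134 ± 25.4 CPM (SD, n = 3 each). Sobic.003G296400 had 150.5 ± 127 CPM and 122 ± 20.4 CPM (SD, n = 3 each). The wild-type SD was nearly as large as the wild-type mean for all 3 genes, with coefficients of variation of 92.9%, 99.1% and 84.2% against 17.2%, 19.0% and 16.7% in the mutant.

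No difference between the genotypes was detectable against this spread. The log2 fold change of bri1-ems72 over WT-ems72 was -0.40 (SE 0.75, 95% interval -2.18 to 1.38) for Sobic.002G205500. It was -0.43 (SE 0.73, interval -2.16 to 1.30) for Sobic.001G224300 and -0.30 (SE 0.68, interval -1.92 to 1.32) for Sobic.003G296400. None passed the edgeR quasi-likelihood test with Benjamini-Hochberg adjustment over all 23707 genes tested (adjusted p = 1.00 for each), and the intervals include a fold change of 2 in either direction. The same test called 0 genes higher (0.00%) and 0 lower (0.00%) in bri1-ems72 among all genes tested. At an unadjusted p below 0.05 it gave 337 genes (1.42%), of which 0 were among the 3, whose unadjusted p were 0.612, 0.574 and 0.674. DESeq2 called 3 genes higher and 1 lower, and limma-voom 0 and 0, again with 0 of the 3 CESA genes. The median log2 fold change of the 3 genes was -0.40 and that of all tested genes -0.012.

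The direction of the small differences was not fixed either. On the mean of log2 CPM a single high pool weighs less, and a single low pool such as WT-ems72 replicate 2 weighs more. By that measure the mutant stood above the wild type by 0.21, 0.14 and 0.20 for Sobic.002G205500, Sobic.001G224300 and Sobic.003G296400, opposite in sign to the fitted fold changes. An exact two-sided permutation test of these differences gave p = 0.9 for each gene (n = 3 pools against 3, smallest possible p = 0.1). The pools of the genotypes overlapped for all 3 genes, whereas 1085 of the tested genes (4.58%) had pools that did not overlap, in either direction.

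The sign depended on the extreme wild-type pools. Without WT-ems72 replicate 1 the log2 fold changes of the 3 genes, in the same order, were 0.60, 0.73 and 0.53. Without WT-ems72 replicate 2 they were -0.90, -0.92 and -0.79. Leaving out both, a choice made after the values were seen, left WT-ems72 replicate 3 as the only wild-type pool and gave -0.15, 0.099 and -0.20, with SE of 0.31, 0.32 and 0.29. The lone wild-type pool is then assumed to vary as the mutant pools do. In these fits too, none of the 3 genes passed (edgeR, adjusted p of at least 0.995).

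**Figure D2:**
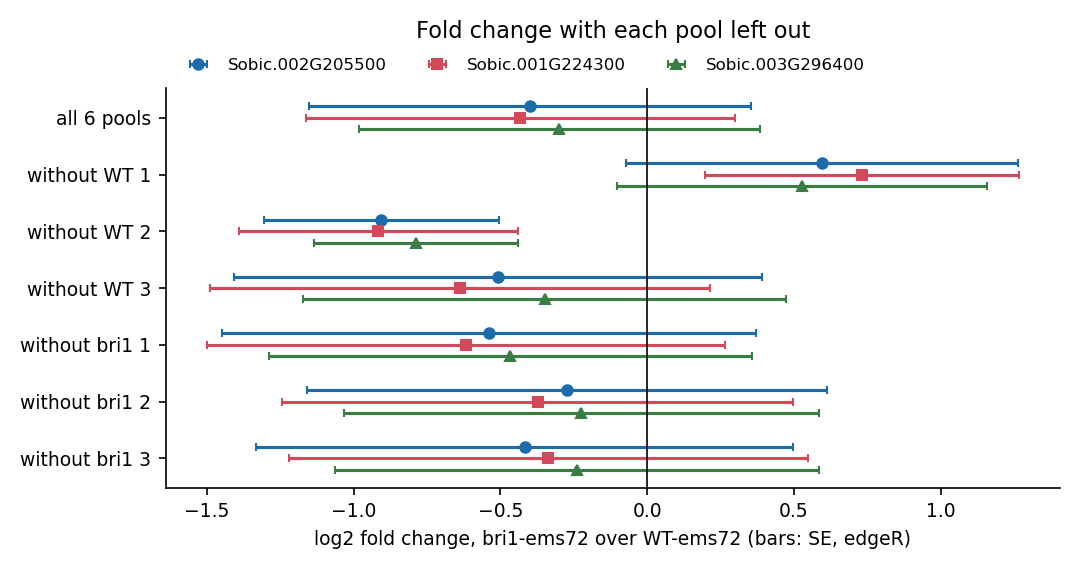
Log2 fold change of bri1-ems72 over WT-ems72 (edgeR, bars give the SE) for each gene, with all 6 pools and with each pool left out in turn. The 3 genes lie above 0 only without WT-ems72 replicate 1 (0.53 to 0.73) and farthest below 0 without WT-ems72 replicate 2 (-0.92 to -0.79).

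The 3 transcripts rose and fell across pools almost in step. Pearson's r of log2 CPM over the 6 pools was 0.981 for Sobic.002G205500 and Sobic.001G224300, 0.996 for Sobic.002G205500 and Sobic.003G296400, and 0.982 for Sobic.001G224300 and Sobic.003G296400. Exact permutation p over the 720 pairings of pools were 0.00694, 0.00139 and 0.00278, and 0.00694, 0.00417 and 0.00417 after Benjamini-Hochberg adjustment over the 3 pairs. Spearman's rho was 0.943, 1.00 and 0.943 (exact permutation p = 0.0167, 0.00278 and 0.0167, adjusted 0.0167, 0.00833 and 0.0167). The values of a pool share a library, its scaling and its tissue.

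Much of this relation rests on the extreme wild-type pools. With WT-ems72 replicates 1 and 2 left out, as the pools farthest from the median, r over the remaining 4 pools was 0.518, 0.837 and 0.741 for the 3 pairs in the same order. Spearman's rho was 0.8, 1.00 and 0.8. Over 4 pools none of the r passed an exact permutation test (p = 0.458, 0.125 and 0.0833). The smallest p possible over 4 pools is 0.0417, so this test could hardly have passed and does not show that the relation is absent there. In those pools the mean profile of the 3 genes spanned only 1.36-fold, against 10.7-fold over all 6. Without either of the extreme pools singly, or any other single pool, r was at least 0.961 for each pair. The highest and the lowest pool are of the same genotype, and with the genotype means subtracted r was 0.982, 0.996 and 0.982. Permuting the pools within each genotype then gave an exact p of 0.0556, 0.0278 and 0.0556, not adjusted over the 3 pairs. Only the second pair was below 0.05, and adjustment over the 3 pairs would leave none below it. The smallest p that the 36 arrangements allow is 0.0278.

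**Figure D3:**
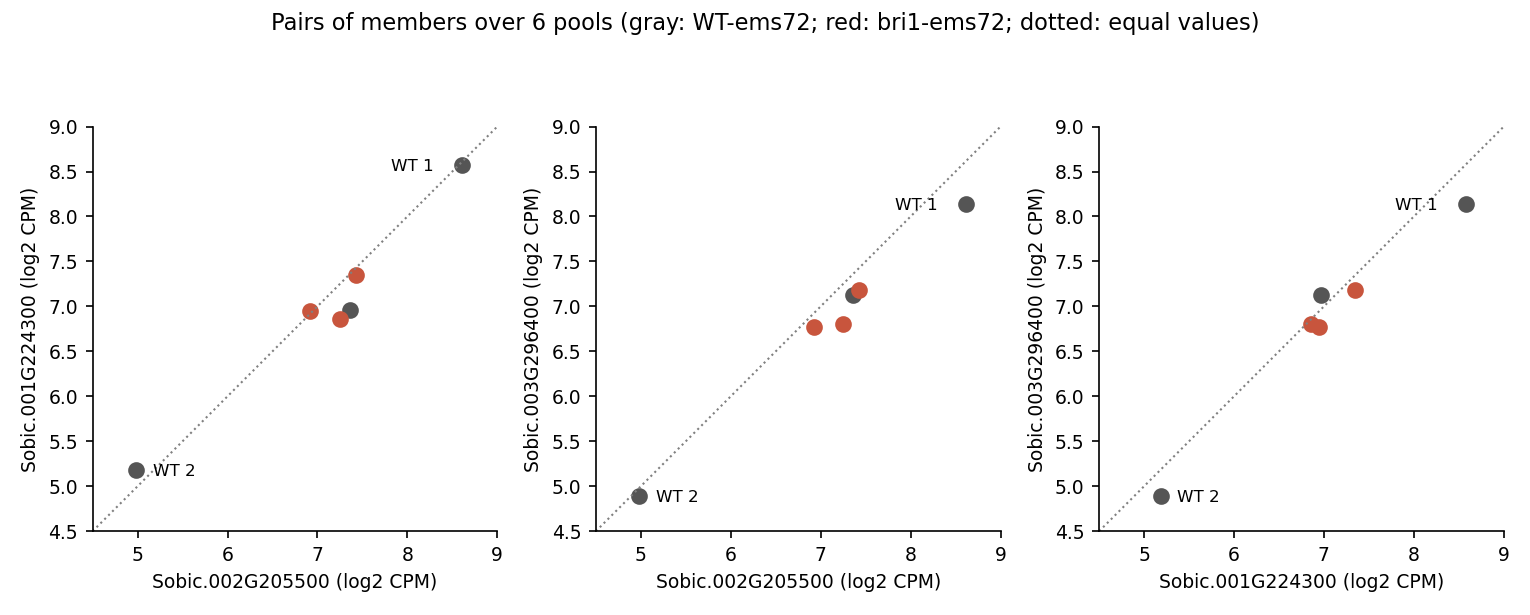
Log2 CPM of each pair of genes in the 6 pools (gray, WT-ems72; red, bri1-ems72; dotted line, equal values). WT-ems72 replicates 1 and 2 lie at opposite ends near the line, and the other 4 pools lie together between them.

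Over all pools the proportions among the 3 transcripts moved far less than their levels. This contrast rests on WT-ems72 replicates 1 and 2, the pools with the highest and the lowest levels. Of the centred log2 CPM variance of the 3 genes over pools, 98.9% was shared with their mean profile and 1.10% was not. As shares of their summed counts, Sobic.002G205500 made up 35.9% ± 3.15 in WT-ems72 and 36.7% ± 3.01 in bri1-ems72 (SD, n = 3 each). Sobic.001G224300 made up 34.2% ± 4.44 and 33.1% ± 2.29, and Sobic.003G296400 29.9% ± 2.94 and 30.2% ± 0.732 (SD, n = 3 each). The genotypes differed in these shares by 0.769, -1.09 and 0.320 percentage points, mutant minus wild type, less than the spread between pools (exact two-sided permutation p = 0.8, 0.7 and 0.9, smallest possible p = 0.1). Transcript lengths were not joined to the IDs, so the shares are of counts and do not give the relative number of transcripts.

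Ratios within a pool express the same counts as the shares in another form, and neither depends on library scaling. The log2 ratio of Sobic.002G205500 to Sobic.001G224300 was 0.08 ± 0.30 in WT-ems72 and 0.15 ± 0.22 in bri1-ems72. That of Sobic.002G205500 to Sobic.003G296400 was 0.27 ± 0.19 and 0.28 ± 0.15, and that of Sobic.001G224300 to Sobic.003G296400 was 0.19 ± 0.31 and 0.13 ± 0.067 (SD, n = 3 each). Over the 6 pools these ratios spanned 1.52-fold, 1.30-fold and 1.51-fold, where the genes themselves spanned 12.4-fold, 9.54-fold and 10.5-fold for Sobic.002G205500, Sobic.003G296400 and Sobic.001G224300. Without WT-ems72 replicates 1 and 2 the mean profile of the genes spanned only 1.36-fold. In those remaining pools the 3 count ratios, in the order above, ran from 0.983 to 1.32, 1.11 to 1.36 and 0.893 to 1.13. There the proportions were thus not clearly steadier than the levels. None of the 3 ratios differed between genotypes beyond the spread (exact two-sided permutation p = 0.8, 0.9 and 0.8, each 0.9 after Benjamini-Hochberg adjustment over the 3 ratios).

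The ratios still varied by more than counting error. Sobic.002G205500 had 1.32 counts per count of Sobic.001G224300 in WT-ems72 replicate 3 and 1.31 in bri1-ems72 replicate 3, against 0.868 to 1.05 in the other 4 pools. The counting SE of a log2 ratio was 0.015 to 0.056, and the 2 technical runs of a pool differed by at most 0.18 in it. That largest difference, above the counting SE, was in this ratio in WT-ems72 replicate 3 (log2 ratio 0.49 and 0.31). In bri1-ems72 replicate 3 the runs gave 0.40 and 0.38. Both replicate 3 pools carry the number 5 in their titles. Their count columns are also named in another form than those of the other 4 pools. The labels do not say what the number or the form of name marks. This grouping of the pools was noticed in the values and was not tested.

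In WT-ems72 replicate 1, the pool with the highest levels, Sobic.003G296400 had its lowest share, 26.8% (95% Wilson interval 26.4% to 27.2%). In WT-ems72 replicate 2, the pool with the lowest levels, its share was 30.4% (29.0% to 31.8%), close to the 29.4% to 30.9% of the mutant pools. Sobic.002G205500 had its lowest share in WT-ems72 replicate 2, at 32.4% (31.0% to 33.8%), and its highest in bri1-ems72 replicate 3, at 40.1% (39.4% to 40.7%). The order of the 3 genes by count thus differed between pools. The intervals cover counting error only.

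**Figure D4:**
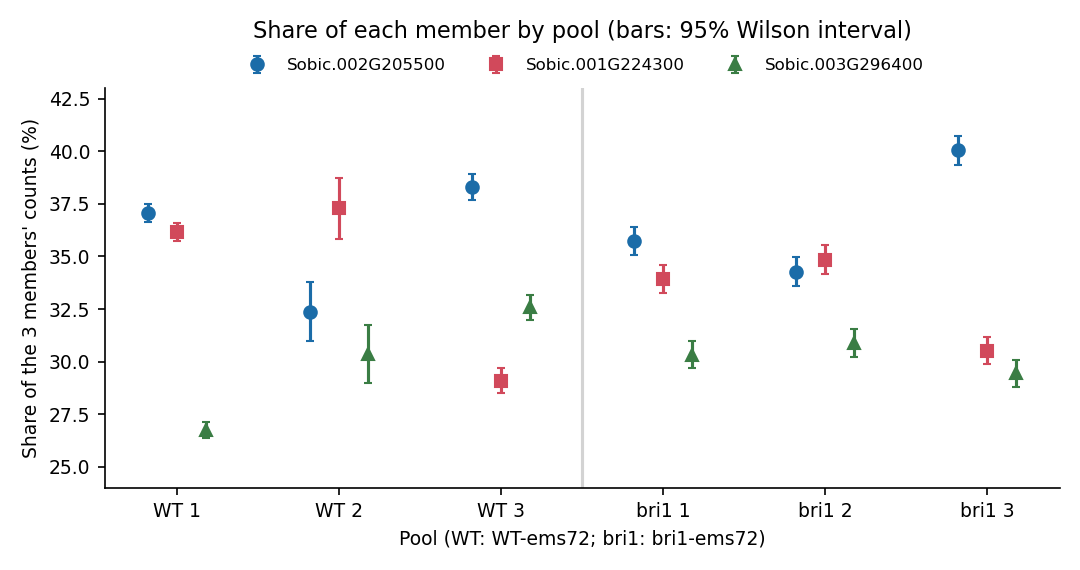
Share of each gene in the summed counts of the 3 genes (%, 95% Wilson interval) in each pool. The shares stay between 26.8% and 40.1% although summed levels ran from 97.5 to 1054 CPM, and Sobic.002G205500 stands highest in replicate 3 of both genotypes.

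Such a spread was uncommon in these roots. From their lowest to their highest pool the 3 genes spanned 3.25 to 3.63 on the log2 scale, where the median of 17040 other genes with a mean of at least 5 CPM was 0.83. A span of at least 3.25 was found in 430 of those genes (2.52%). Among the wild-type pools the SD of log2 CPM was 1.84 for Sobic.002G205500, 1.70 for Sobic.001G224300 and 1.66 for Sobic.003G296400, against a median of 0.33 for the other genes. Among the mutant pools it was 0.25, 0.26 and 0.23, and the median of the other genes was 0.27. An SD among the mutant pools at least as large as the highest of these was found in 51.5% of the other genes, and an SD among the wild-type pools of at least 1.66 in 1.5%. The difference in spread between genotypes was noticed in the values and not tested.

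Genes whose levels most resembled the mean profile of the 3 were looked for among the same 17040. The measure was Pearson's r over the 6 pools, given as a description with no test. The 10 highest had r from 0.980 to 0.993, in the order Sobic.006G157000, Sobic.002G352000, Sobic.006G254500, Sobic.004G034300, Sobic.006G226200, Sobic.002G158900, Sobic.004G047600, Sobic.001G360800, Sobic.002G112100 and Sobic.001G201000. The sources used here pair none of these IDs with a name or a product. All 10 were highest in WT-ems72 replicate 1 and lowest in WT-ems72 replicate 2, an order that 885 of the 17040 genes (5.19%) had. As the 10 were picked for likeness to a profile with these extremes, their order follows from the choice and is not a separate result.

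All 10 moved less than the CESA genes. Sobic.006G157000, the most alike (r = 0.993), had 53.1, 25.4 and 38.6 CPM in the WT-ems72 pools and 38.7, 36.9 and 38.3 CPM in the bri1-ems72 pools, a shift of 0.30 on the log2 scale for each unit of the CESA mean. Sobic.004G047600 came nearest in size, with a shift of 0.90 per unit (r = 0.984). Its levels were 89.9, 10.7 and 50.3 CPM in WT-ems72 and 44.1, 43.6 and 43.8 CPM in bri1-ems72. Its wide wild-type range around closely spaced mutant pools follows from its choice by r and shift, and is not a separate result. Over the 10 genes the shift per unit ran from 0.16 to 0.90, and 5 spanned at least 2 on the log2 scale. In all, 33 of the 17040 genes had both an r of at least 0.9 and a shift of at least 0.8 per unit. None of the 10 passed the test between genotypes (edgeR, adjusted p = 1.00 for each), and neither did any of the 23707 genes tested. The 10 were picked by a profile whose highest and lowest pools are both wild type, so a call was unlikely from the start.

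**Figure D5:**
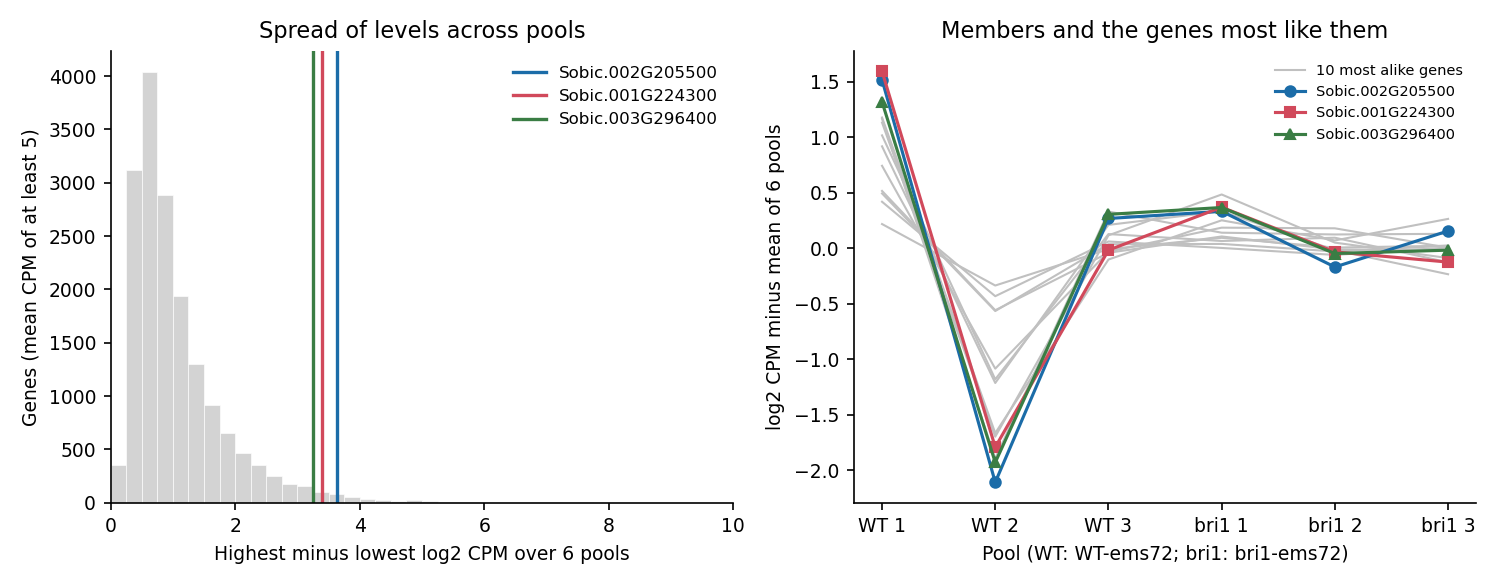
Left, number of genes by the span of their log2 CPM over the 6 pools, for 17040 genes with a mean of at least 5 CPM, with lines at the 3 CESA genes (3.25 to 3.63). Right, log2 CPM minus the mean of the 6 pools for the 3 CESA genes and, in gray, for the 10 genes most like them, which share the peak in WT-ems72 replicate 1 and the low in WT-ems72 replicate 2 at smaller size.

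CAD2 and 4CL, 2 genes of lignin synthesis, were named by IDs known from the literature and not from the table. They were added after their values were known and do not stand for the whole pathway. Neither had both WT-ems72 replicate 1 highest and WT-ems72 replicate 2 lowest. Their r with the mean profile of the CESA genes was 0.023 and 0.54, with a shift of 0.010 and 0.36 per unit. CAD2 (Sobic.004G071000), a cinnamyl alcohol dehydrogenase that makes lignin monomers, had 351, 367 and 268 CPM in the WT-ems72 pools and 575, 328 and 202 CPM in the bri1-ems72 pools. It was thus as high in WT-ems72 replicate 2, where the CESA genes were lowest, as in replicate 1. For 4CL (Sobic.004G062500), the 4-coumarate:CoA ligase that activates lignin precursors, the levels were 299, 116 and 81.3 CPM in WT-ems72 and 244, 214 and 110.0 CPM in bri1-ems72. It was highest in WT-ems72 replicate 1, as the CESA genes were, but lowest in WT-ems72 replicate 3. BRI1 itself (Sobic.003G277900, also named from the literature) had 88.5, 88.1 and 75.0 CPM in WT-ems72 and 97.9, 99.8 and 106.9 CPM in bri1-ems72. Its pools did not overlap between genotypes, but its difference was not called (log2 fold change 0.28, SE 0.17, edgeR adjusted p = 1.00), and the exact permutation test gave p = 0.1, the smallest that 3 pools against 3 allow. Among the wild-type pools it spanned 1.18-fold, where the CESA genes spanned 9.54-fold to 12.4-fold. Markers of xylem and of the other root cell types could not be identified by name, so the share of xylem in each pool was not tested.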

How the data were processed

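The tools named in the submitters' processing notes are R 4.1.1, edgeR 3.34.1, featureCounts 1.6.2, HISAT2 2.1.0, Trimmomatic 0.38 and FastQC 0.11.2. As build, annotation and strand setting were not given in the sources used here, reads shared by near-identical CESA copies or by overlapping genes cannot be told apart. The authors deposited raw, unnormalized counts in 12 columns under 6 names. The 2 columns of a name are the runs of a pool and were summed.

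Genes were filtered with filterByExpr (23707 of 34129 kept) and scaled with TMM. They were tested with the edgeR 4.0.16 quasi-likelihood test in R 4.3.3, with genotype as the only term and Benjamini-Hochberg adjustment over all genes tested (threshold 0.05). Log2 CPM used a prior count of 2. Ratios, shares and correlations used exact permutation tests (scipy 1.17.1). Of the table's IDs, 0 matched the RefSeq table, as written or as SORBI_3 locus tags, so the wall gene lists and cell type markers set by product text were not applied. The rule for named genes took the 3 genes, BRI1, those lists and the 10 most alike genes with a mean of at least 5 CPM. CAD2 and 4CL were added outside it, after their values were known. The members and lists were chosen with earlier results of these data known. Alternatives were scaling, tests (DESeq2 1.42.0, limma-voom 3.58.1), filters, replicate blocks, single columns and leaving out each pool. DESeq2 gave no p for 87 genes.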

Additional observations from a re-analysis of the deposited data

How the results depend on the processing

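None of the 3 genes was called under any of the 17 alternatives. With limma-voom the log2 fold changes of Sobic.002G205500, Sobic.001G224300 and Sobic.003G296400 turned to 0.23, 0.16 and 0.22, and with the replicate block by description number to 0.18, 0.12 and 0.16. That of Sobic.001G224300 also turned without WT-ems72 replicates 1 and 2 (0.099). In the replicate block by title number they were -0.90, -0.87 and -0.85, with SE of 0.43, 0.42 and 0.31. There WT-ems72 replicate 2 and bri1-ems72 replicate 1 each stand alone in a block and add nothing to the fold change, so this fit compares fewer pools. Leaving out each pool in turn gave -0.90 to 0.60, -0.92 to 0.73 and -0.79 to 0.53. RLE and total-size scaling, DESeq2, the filters and the single columns kept the sign. The pools with the same description number had deviations from the means of their genotypes that correlated at 0.044, -0.23 and 0.40 across genes. The 2 pairs that share a title number correlated at 0.39 and 0.40, above every other pair of a wild-type and a mutant pool (-0.40 to 0.24). They are fewer than 3, and the labels do not say what the number marks. Neither numbering was used as a pairing in the main fit, and whether the title number pairs pools was not tested.

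DESeq2 called 3 genes higher and 1 lower in bri1-ems72, and every other alternative 0 and 0. At unadjusted p below 0.05, a count added after the data were seen, 337 genes became 531 with DESeq2, 1311 with the title block and 509 without bri1-ems72 replicate 3. The cause was not tested.

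The differences in log2 ratio between genotypes were near 0 and turned easily. Leaving out each pool gave -0.069 to 0.23 for Sobic.002G205500 over Sobic.001G224300, -0.075 to 0.11 for Sobic.002G205500 over Sobic.003G296400 and -0.24 to 0.062 for Sobic.001G224300 over Sobic.003G296400. The first-listed columns alone gave -0.0090 for the second of these. In the replicate block by description number the differences were 0.072, 0.011 and -0.060.

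The correlations kept their sign throughout. Leaving out each pool gave r of 0.961 to 0.989, 0.983 to 0.998 and 0.974 to 0.993 for the 3 pairs, in the order used above. Without the 2 farthest pools r was 0.518, 0.837 and 0.741. With genotype means subtracted r was 0.982, 0.996 and 0.982. The exact permutation p within genotypes, out of 36 arrangements and not adjusted over the pairs, rose to 0.0556, 0.0278 and 0.0556. The wall gene lists were not run, as no product text could be joined. Depth was no limit for the 3 genes, whose lowest count in a pool was 1291.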

Other observations

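The order of the pools that the CESA genes had, WT-ems72 replicate 1 highest and WT-ems72 replicate 2 lowest, had a mirror image of similar size. Of the 17040 genes with a mean of at least 5 CPM, 885 had that order and 827 had the opposite one. Against the mean profile of the 3 CESA genes, 75 genes had an r of at least 0.95 over the 6 pools and 37 an r of -0.95 or below. These limits were set after the data were seen, and the counts are given as values only.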
